A study of Mus musculus with 3 samples.

Results

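Myoc, Cyp1b1, Optn, Tbk1 and Wdr36 are mouse counterparts of genes linked to glaucoma that is inherited through a single gene. They were taken by symbol from the 31053 genes of the deposited matrix, so 5 of 31053 genes are described here, and none was chosen by its values. Their UMIs (unique molecular identifiers, each marking 1 captured RNA molecule) were read in droplet single-cell libraries of the mouse limbus and iridocorneal angle, the ring of tissue that holds the aqueous outflow pathway. There were 2 control pools, from Angpt1 flox/flox mice, and 1 Angpt1ΔNC pool, from Angpt1 flox/flox;Wnt1Cre+ mice, in which the neural crest driver Wnt1-Cre deletes Angpt1. All mice were 6 weeks old, of mixed strain and crossed to ICR to give albino litters, and each library pooled 4 to 6 eyes of 2 to 3 mice that the labels do not tell apart. Both controls lacked the Cre transgene, so the transgene and the deletion cannot be told apart. The kept cells numbered 9076 in control 1, 10160 in control 2 and 6772 in the Angpt1ΔNC pool, and the study had put them under 35 labels.

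Myoc encodes myocilin, a secreted olfactomedin-domain glycoprotein abundant in the trabecular meshwork (TM), and mutant forms are retained in the endoplasmic reticulum of TM cells. Cyp1b1 encodes a cytochrome P450 that metabolises retinoids, steroids and other lipids, is induced through the aryl hydrocarbon receptor, and is the main gene of primary congenital glaucoma. Optn encodes optineurin, an autophagy receptor, and Tbk1 the kinase that phosphorylates it; both are linked to normal-tension glaucoma, in which retinal ganglion cells are lost without raised pressure. Wdr36 encodes a nucleolar protein of the small subunit processome, which builds the small ribosomal subunit. Its place among glaucoma genes is the most debated of the 5.

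On the GRCm38 build, Myoc (ENSMUSG00000026697) lies at chr1:162639155-162649693 on the plus strand and Cyp1b1 (ENSMUSG00000024087) at chr17:79701537-79715061 on the minus strand. Optn (ENSMUSG00000026672) lies at chr2:5020642-5064051 on the minus strand and Tbk1 (ENSMUSG00000020115) at chr10:121546455-121586787 on the minus strand. RefSeq promoters (GRCm38.p6, 250 bases before and 50 bases from the start) matched 4 of the 5 genes. They are shown because the members ranged from a gene concentrated in a few labels to genes read in nearly all labels. In the sequences, 5′ to 3′ on the gene's strand, capitals mark each TATAAA, a motif of core promoters, and each GCGTG, the core that the aryl hydrocarbon receptor binds with Arnt, which appears as CACGC where it is on the opposite strand.
Myoc: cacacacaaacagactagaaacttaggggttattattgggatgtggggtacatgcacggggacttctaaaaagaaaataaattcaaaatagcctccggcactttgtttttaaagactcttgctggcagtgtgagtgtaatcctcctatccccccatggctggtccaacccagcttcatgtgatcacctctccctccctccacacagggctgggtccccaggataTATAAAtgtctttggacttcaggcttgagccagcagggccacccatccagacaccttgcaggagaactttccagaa
Cyp1b1: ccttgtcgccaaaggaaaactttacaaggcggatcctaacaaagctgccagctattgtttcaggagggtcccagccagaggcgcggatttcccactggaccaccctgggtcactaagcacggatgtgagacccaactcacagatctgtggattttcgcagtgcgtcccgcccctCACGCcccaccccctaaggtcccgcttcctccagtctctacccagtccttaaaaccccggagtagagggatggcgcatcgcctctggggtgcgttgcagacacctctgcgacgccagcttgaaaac
Optn: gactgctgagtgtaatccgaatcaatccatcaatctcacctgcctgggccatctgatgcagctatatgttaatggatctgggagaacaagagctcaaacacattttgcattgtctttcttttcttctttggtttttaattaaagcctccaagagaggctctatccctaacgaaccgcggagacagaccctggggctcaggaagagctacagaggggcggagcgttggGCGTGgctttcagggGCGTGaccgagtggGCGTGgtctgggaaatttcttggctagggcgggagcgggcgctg
Tbk1: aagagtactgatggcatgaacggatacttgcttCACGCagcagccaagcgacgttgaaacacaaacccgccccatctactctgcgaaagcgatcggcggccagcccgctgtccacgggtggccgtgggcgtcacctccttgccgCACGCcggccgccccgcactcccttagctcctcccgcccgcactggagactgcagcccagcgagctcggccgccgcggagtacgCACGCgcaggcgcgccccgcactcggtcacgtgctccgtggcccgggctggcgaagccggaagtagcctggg
The Myoc window, chr1:162638900-162639199, held 1 TATAAA that began 26 bases before the start and no GCGTG on either strand, and 2 CG pairs. The Cyp1b1 window, chr17:79715012-79715311, held 16 CG pairs and 1 GCGTG, 76 bases before the start. The Optn window, chr2:5064068-5064367, held 13 CG pairs and 3 GCGTG, and the Tbk1 window, chr10:121586745-121587044, held 37 CG pairs and 3 GCGTG. Of 32851 promoter windows of the same length, 13.6% held TATAAA and 32.4% held GCGTG on either strand, with a median of 7 CG pairs. These are matches of letters, and binding was not measured.

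Before any comparison, the libraries were checked against their labels. Angpt1 gave 2911 and 3158 UMIs in the controls and 26 in the Angpt1ΔNC pool, present in 17.2%, 17.3% and 0.340% of cells. The labels say that both sexes were pooled, but Xist, the RNA of the inactive X chromosome, was read in 0.0331% and 0.0197% of control cells and in 58.7% of Angpt1ΔNC cells. Cells with a Y-linked UMI and no Xist, called male-typed here, made up 69.7%, 72.1% and 29.4% of the libraries, so the sex of the cells moved with genotype. Its part in the results was not tested beyond the fits on male-typed cells given beside them. Median depth was 6329.5, 6393.5 and 7444 UMIs per cell, and 13 to 25 cell barcodes were shared by each pair of libraries. In pools, fewer molecules per cell and a different mix of cells under a label cannot be told apart.

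Labels were compared by the level, which is the mean over cells of a gene's UMIs per 10,000 UMIs of the cell. The order of labels is a description without a test, because the labels came from clustering the same cells; Myoc and Cyp1b1 were also among the genes in the deposited integrated table, and the other 3 members were not. Of the 35 labels, 32 had at least 20 cells in every library. Most labels held the markers of their names, with 4 of 7 trabecular genes more than 4-fold above the mean of the other labels in TM4 (TM and juxtacanalicular cells) and 4 of 6 corneal endothelial genes in TM2 (corneal endothelium). TM7, an uveal stroma label, held 2 of 4 uveal genes, the melanocyte labels clusters 8 and 9 held 4 of 4, and EC2 to EC4 and SC (Schlemm's canal) held 4 of 5 endothelial genes. The data went against 1 name that matters below, since cluster 7, called ciliary epithelia, held 2 of 6 ciliary markers, 3 of 4 melanocyte markers and 3 of 5 smooth muscle markers. It is called by its number here. TM3, TM8, TM9, TM11 and clusters 13, 17 and 18 held no list with 2 or more markers over the same fold, and TM8 and TM9 are uveal stroma in the study's naming.

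Myoc was concentrated in a few stromal labels. The TM4 level was 62.8 in control 1, 59.4 in control 2 and 23.2 in the Angpt1ΔNC pool, and TM4 held 56.6%, 43.4% and 45.5% of all Myoc UMIs of the library. TM2 followed at 21.7, 33.0 and 19.8, with 18.0%, 29.6% and 34.7% of the UMIs. TM4 was therefore first and the corneal endothelium second in each library. TM5, the other label of TM and juxtacanalicular cells, was at 6.83, 13.5 and 7.23. TM7 was at 8.0, 10.5 and 3.18, TM10 (Cd34+ stroma) at 7.94, 8.36 and 4.30, and TM3 at 8.28, 5.53 and 5.49. These 4 neighbours in the order did not differ beyond their spread over libraries. Below them stood cluster 13 (corneal stroma) at 3.06, 2.19 and 3.17, and cluster 17, an unnamed stromal label, at 1.24, 3.54 and 0.851. Of the 31 neighbouring pairs in the order of Myoc levels, 2 were apart in all 3 libraries, TM2 above TM5 and TM3 above cluster 13; TM4 and TM2 were apart in the controls only, since the Angpt1ΔNC level in TM4 was inside the TM2 range.

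**Figure D1:**
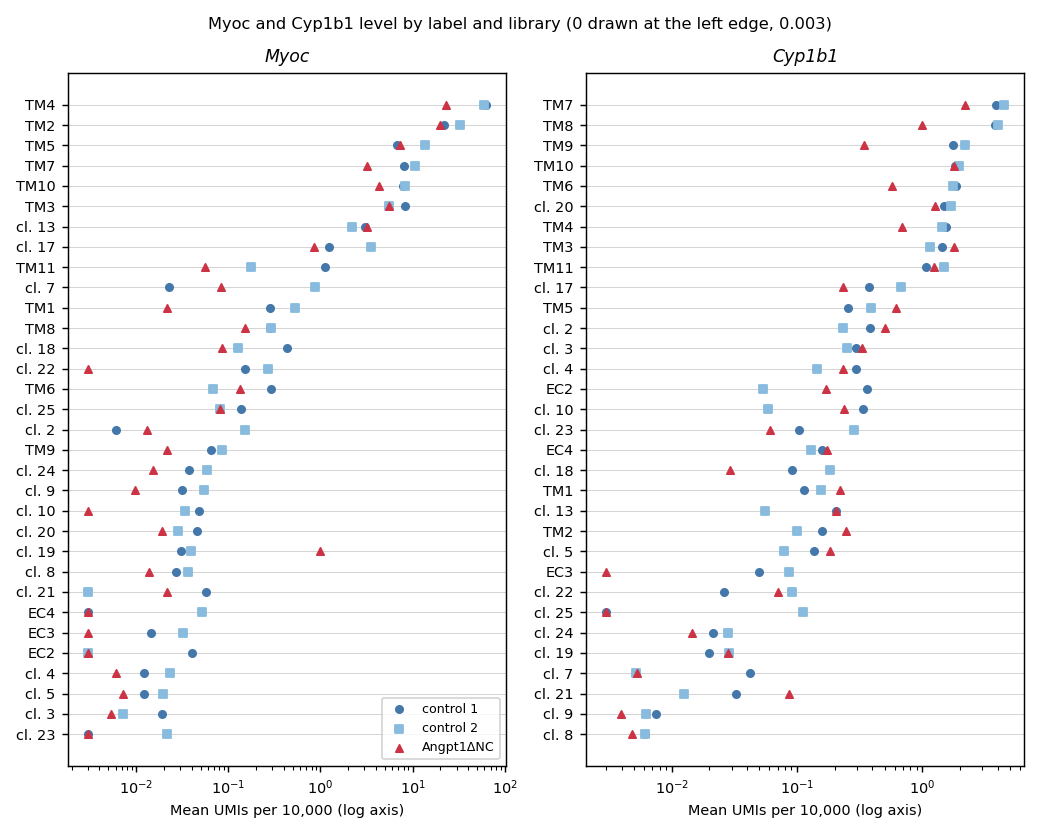
Levels of Myoc and Cyp1b1 (UMIs per 10,000, log axis) by label, with 1 point per library and levels of 0 drawn at the left edge. TM4 leads for Myoc at 62.8, 59.4 and 23.2, and TM7 leads for Cyp1b1 at 3.91, 4.53 and 2.21.

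At least 1 Myoc UMI was present in 87.4% of TM4 cells in control 1 (exact Clopper-Pearson 95% interval 83.0 to 91.0), 91.5% in control 2 (87.97 to 94.3) and 74.3% in the Angpt1ΔNC pool (69.0 to 79.0). After thinning every cell to 2000 UMIs the shares were 82.3%, 82.2% and 60.4%, and the Angpt1ΔNC share remained below both controls. In the corneal endothelium label TM2 the shares were 74.1%, 80.4% and 68.3%. Myoc UMIs were also present in cells not known to make it: 2.25%, 3.01% and 0% of T cells (0 of 105 allows up to 2.86%) at a median depth of 2267, 2500 and 2531 UMIs, and 2.33%, 3.56% and 1.21% of limbal and corneal epithelial cells at 17717, 15168.5 and 15135 UMIs. The same shares in TM4 came at median depths of 8341, 8884 and 9225 UMIs. A share of a few percent in another label is therefore at background, and that holds for the endothelium, where SC gave 1, 2 and 0 Myoc UMIs in 46, 63 and 15 cells. Intervals cover counting error only.

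The amount of Myoc per cell varied widely inside a label. In TM4 the median cell was at 41.8, 38.6 and 6.31 UMIs per 10,000, the 90th percentile at 159, 148 and 63.3, and the highest cell at 315, 279 and 208. Cells at or above 10 UMIs per 10,000 made up 74.8% and 73.6% of TM4 in the controls and 43.7% in the Angpt1ΔNC pool. The Angpt1ΔNC library thus held a lower share of cells with high Myoc, and its highest cells were inside the control range. In TM2 the same share was 43.2%, 51.0% and 43.4%, so control 1 and the Angpt1ΔNC pool were close there. In TM7 the share was 15.6%, 21.0% and 10.3%, and the median TM7 cell had no Myoc UMI in any of the 3 libraries.

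**Figure D2:**
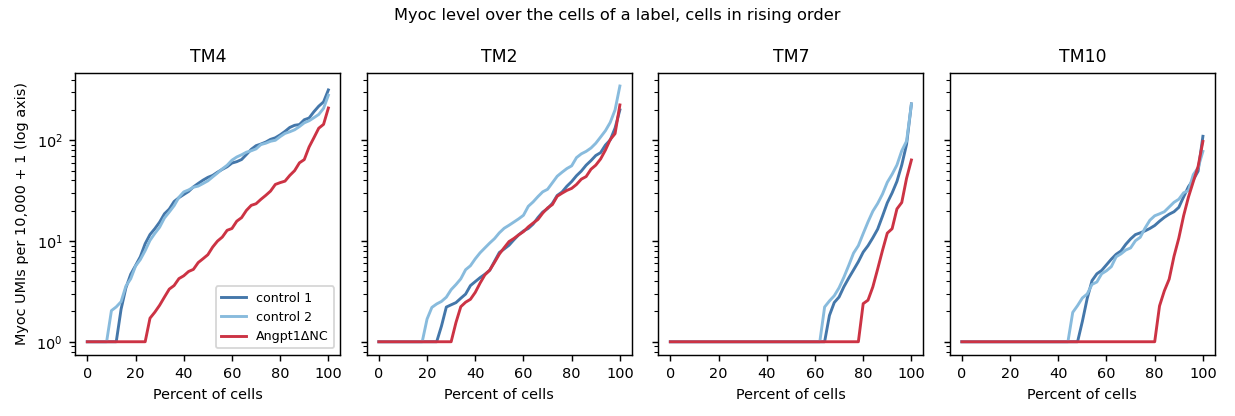
Myoc in each cell of TM4, TM2, TM7 and TM10 (UMIs per 10,000 plus 1, log axis) against the percent of cells in rising order, with 1 line per library. In TM4 the median cell stands at 41.8 and 38.6 in the controls and at 6.31 in the Angpt1ΔNC pool.

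Cyp1b1 was spread over the uveal stroma, the pericytes and other stromal labels and was not highest in TM4 or TM5. The study reads TM7 as uveal cells and proposes that it may be associated with the TM. Its list of genes expressed in TM cells counts TM7 among them, with TM3, TM4, TM5 and TM11. TM7 was highest at 3.91, 4.53 and 2.21, and TM8 stood next in the controls at 3.80, 4.04 and 0.994. TM9 was at 1.77, 2.20 and 0.343. In these 3 uveal labels the Angpt1ΔNC level was below both controls. TM10 was at 1.82, 1.95 and 1.78, TM6 at 1.86, 1.77 and 0.578, and the pericytes of cluster 20 at 1.48, 1.71 and 1.27. The smooth muscle labels did not share this, cluster 21 being at 0.0325, 0.0125 and 0.0860. TM4 came seventh in the order, at 1.55, 1.42 and 0.686. Close to it stood TM3 at 1.43, 1.16 and 1.80 and TM11 at 1.06, 1.48 and 1.24. TM5 was lower at 0.257, 0.388 and 0.619, and TM2 was at 0.157, 0.0997 and 0.247. The 2 highest labels for Myoc, TM4 and TM2, thus differed in Cyp1b1, TM4 being above TM2 in each library.

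At least 1 Cyp1b1 UMI was present in 69.4%, 75.6% and 63.8% of TM7 cells and in 66.0%, 67.8% and 29.7% of TM8 cells. T cells gave 1.12%, 2.26% and 1.90%. In epithelial clusters 4 and 5 the shares were 21.9%, 13.9% and 25.1%, which became 3.82%, 2.17% and 3.99% when cells were thinned to 2000 UMIs, beside 46.0%, 51.2% and 30.5% in TM7. The lowest labels were the melanocytes, where cluster 8 gave 6, 5 and 2 UMIs in 839, 767 and 442 cells. Schlemm's canal, the endothelial channel that drains the aqueous humour, gave 35, 52 and 20 Cyp1b1 UMIs in 46, 63 and 15 cells, with 32.6% (19.5 to 48.0), 22.2% (12.7 to 34.5) and 60.0% (32.3 to 83.7) of cells positive. The Angpt1ΔNC interval is wide and overlaps the intervals of both controls. With 15 Angpt1ΔNC cells, SC was kept out of the order of labels and of the counts over labels, but its UMIs are part of the endothelial sums tested below.

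The presence of Cyp1b1 in cells with and without Myoc was read within TM3, TM4, TM5, TM7 and TM10. Among TM4 cells with a Myoc UMI, 40.0%, 41.1% and 17.7% also had a Cyp1b1 UMI, and among those without one 38.9%, 14.3% and 21.3% did, the last shares resting on 36, 28 and 80 cells. In TM7, 66.2%, 70.4% and 71.1% of Myoc-positive cells had Cyp1b1 and 71.1%, 78.9% and 61.8% of the others did. The direction differed between libraries in TM4 and TM7. In TM3 the share was lower in Myoc-positive cells in each library, at 33.7%, 29.8% and 30.2% against 51.1%, 43.9% and 44.6%. In TM5 it was also lower in each, at 22.2%, 13.6% and 22.2% against 27.8%, 22.2% and 44.4%. The TM3 shares rest on 95, 121 and 43 cells with Myoc and 90, 164 and 83 without. Those of TM5 rest on 36, 59 and 54 with Myoc and 18, 45 and 72 without. In TM10 the direction differed between libraries, at 39.2%, 32.6% and 51.4% against 56.7%, 49.3% and 38.4%. These are shares of cells within single libraries and carry no test. Across the 34 labels of the controls the correlation of log2 levels of Myoc and Cyp1b1 was 0.43, and across 32 labels of the Angpt1ΔNC pool it was 0.47; labels of a library share its depth and free RNA.

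Optn, the autophagy receptor, had its highest levels outside the outflow stroma, in the melanocyte labels. Melanocytes of cluster 8 were at 1.17, 1.11 and 1.24, those of cluster 9 at 0.822, 0.773 and 0.841, and cluster 7 at 0.537, 0.484 and 0.692. In that order each of these labels was above the next in all 3 libraries. Cluster 24, of macrophage markers, followed at 0.335, 0.337 and 0.231 and was below cluster 7 in each library. Cluster 8 alone held 44.9%, 40.2% and 42.8% of all Optn UMIs, and 67.7%, 62.2% and 71.9% of its cells were positive. The corneal epithelium of cluster 5 had the lowest control mean, at 0.0321, 0.0354 and 0.0477, though 4 labels were lower in the Angpt1ΔNC pool and TM11 was lower in control 2. TM4 was at 0.149, 0.0993 and 0.0849. The retinal pigment epithelium of cluster 1, which had only 17 Angpt1ΔNC cells, gave 130, 50 and 22 Optn UMIs in 133, 81 and 17 cells.

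Tbk1, the kinase that acts on optineurin and in innate immune signalling, was read in nearly all labels, with control means that spanned 7.08-fold. EC2, a vascular endothelial label of 32, 38 and 37 cells, was highest at 0.920, 0.501 and 0.733. EC4 was at 0.436, 0.560 and 0.430, EC3 at 0.579, 0.385 and 0.423, and cluster 23, of dendritic cell markers, at 0.561, 0.490 and 0.201. No neighbouring pair of the 31 was apart in all 3 libraries. The endothelium still stood above most labels, since the lowest library of EC2 to EC4, at 0.385, was above every library of 26 of the 29 other labels; the exceptions were clusters 20, 23 and 24. SC was left out of the order and gave 32, 37 and 3 Tbk1 UMIs in 46, 63 and 15 cells. TM4 gave 43, 68 and 27 UMIs.

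Wdr36 (ENSMUSG00000038299, chr18:32837225-32867594 on the plus strand), of the ribosome-building machinery, was highest in the epithelia. Cluster 2, named limbal stem cells, was at 0.801, 0.438 and 0.576, and held 56, 41 and 69 cells. Corneal epithelium of cluster 5 was at 0.633, 0.553 and 0.374, limbal epithelium of cluster 4 at 0.575, 0.461 and 0.359 and conjunctival epithelium of cluster 3 at 0.456, 0.544 and 0.367. The 4 epithelial labels took the first 4 places in each library, without a resolved order among them. They were also among the deepest labels per cell, and after thinning to 2000 UMIs 14.4%, 8.21% and 10.8% of cluster 2 cells were positive against 76.8%, 53.7% and 79.7% before. The lowest control mean was that of TM6, at 0.0193, 0.0596 and 0.0513.

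**Figure D3:**
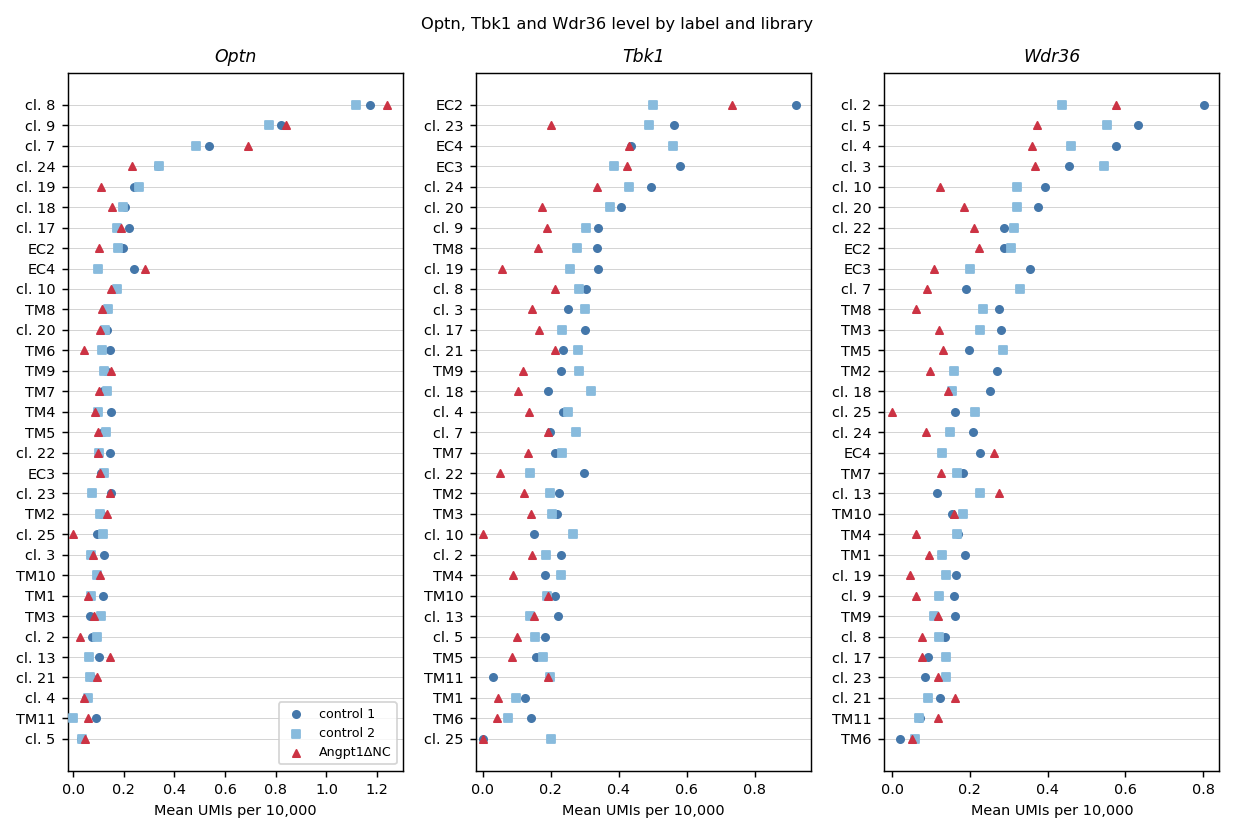
Levels of Optn, Tbk1 and Wdr36 (UMIs per 10,000, linear axis) by label, with 1 point per library. Optn is set apart in clusters 8, 9 and 7, at 1.17, 0.822 and 0.537 in control 1, whereas for Tbk1 no 2 neighbouring labels are apart in all 3 libraries.

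The 5 genes with the pattern most like each member were ranked by the correlation of log2 levels over the 34 labels of the controls, which share library and depth. For Optn all 5 were genes of pigment cells, namely Slc24a5 (0.88), Mlana (0.88), Tyrp1 (0.87), Dct (0.87) and Oca2 (0.85), and all 5 peaked in cluster 8. The same genes gave 0.82 to 0.89 in the Angpt1ΔNC library, which the ranking did not use. For Myoc they were Svep1 (0.87), 1500015O10Rik (0.86), Ltbp2 (0.85), Clec11a (0.85) and Chil1 (0.84), of which 4 peaked in TM4 as Myoc did, and Svep1 in TM5. For Cyp1b1 they were Cygb (0.82), Ltbp4 (0.82), Igfbp5 (0.82), Gdf10 (0.81) and Gfpt2 (0.79), with peaks in TM6, TM7, TM8 and TM10. For Tbk1 they were Chmp4b (0.88), Tnip1 (0.85), N4bp1 (0.84), Znrf1 (0.83) and Jak2 (0.82), and for Wdr36 they were Erh (0.87), Eef1e1 (0.86), Llph (0.83), Snrpd3 (0.83) and Mphosph6 (0.81), with peaks in clusters 2 and 4. In the Angpt1ΔNC library the values were 0.76 to 0.84 for the Myoc genes, 0.69 to 0.77 for Cyp1b1, 0.54 to 0.74 for Tbk1 and 0.50 to 0.73 for Wdr36. No pair of members was as close, the highest being Myoc and Cyp1b1 at 0.43.

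The Angpt1ΔNC pool was then set beside the controls label by label, for labels in which a gene had at least 10 UMIs over the 3 libraries. Myoc was below both controls in 18 of 24 such labels and above both in 2. Cyp1b1 was below in 13 of 29 and above in 10. Over all genes and labels, 42.8% of 317918 pairs were below both controls and 32.9% were above both, beside 44.8% of labels below both for Cyp1b1 and 75.0% for Myoc. The 24 Myoc labels include labels at the level of free RNA. In the 9 labels whose Myoc remained above 0 in both controls after subtracting the UMIs per cell of T cells or of epithelium, the Angpt1ΔNC level was below both controls in 7 and above both in 1. For Cyp1b1 there were 11 such labels, with the Angpt1ΔNC level below both controls in 7 and above both in 3. Neither reference is a measured floor of free RNA. In control T cells, Myoc was 9 UMIs in 2 cells and 30 UMIs in 4 cells. The Cyp1b1 level of the epithelium was 0.203, 0.112 and 0.219, above cluster 8 at 0.00607, 0.00608 and 0.00484. Tbk1 was below both in 26 of 31 labels and above both in none, Wdr36 below in 22 of 29, and Optn below in 16 of 30 and above in 10. The median gene also stood lower in the Angpt1ΔNC pool, the median ratio over all genes ranging from 0.801 to 1.03 between labels with a median of 0.920. The median ratio of Angpt1ΔNC to control level was 0.579 for Tbk1 and 0.656 for Wdr36 over 32 labels. Labels of 1 library are not replicates, and these counts carry no test.

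**Figure D4:**
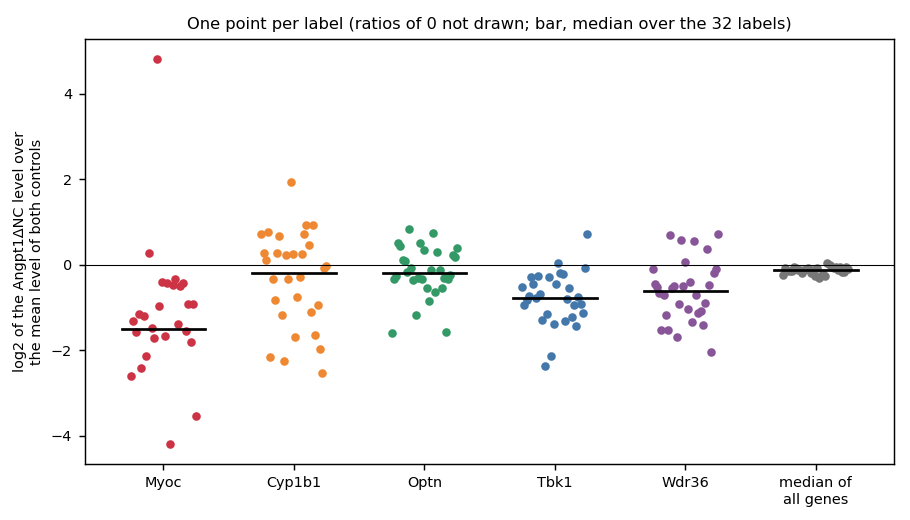
Log2 ratio of the Angpt1ΔNC level to the control mean for each of the 5 genes and for the median of all genes, with 1 point per label, ratios of 0 not drawn and a bar at the median over 32 labels. Tbk1 lies below both controls in 26 of 31 labels with at least 10 UMIs, and Cyp1b1 in 13 of 29.

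To test the genotype difference, UMIs were summed per library over the 11 stromal labels TM1 to TM11, over TM2, TM4 and TM7 singly, over the endothelial labels and over epithelial clusters 4 and 5. The sums were compared by edgeR's quasi-likelihood test with Benjamini-Hochberg adjustment over all genes tested. With 2 controls and 1 Angpt1ΔNC library there is 1 residual degree of freedom, the lone library is assumed to vary like the controls, and p-values measure only the spread between these pools.

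In the stromal labels as a whole, where 8.97% of 13942 genes passed, Myoc, Cyp1b1, Tbk1 and Wdr36 fell in the Angpt1ΔNC pool and Optn did not pass. Myoc gave 27493 and 39196 UMIs in the controls and 14557 in the Angpt1ΔNC pool, a log2 fold change of -0.78 ± 0.17 (SE; edgeR adjusted p = 0.0254). Cyp1b1 gave 3524, 4570 and 1264 UMIs, a log2 fold change of -1.27 ± 0.16 (edgeR adjusted p = 0.00239). Tbk1 gave 390, 478 and 193 UMIs and fell by 0.77 ± 0.17 on the log2 scale (edgeR adjusted p = 0.0272), and Wdr36 gave 390, 407 and 169 and fell by 0.84 ± 0.18 (edgeR adjusted p = 0.0260). Markers of other cells moved with genotype in the same labels. The uveal list holds the deleted gene Angpt1 and shares Rgs5 and Pdgfrb with the pericyte list. Uveal markers summed to 11.4, 9.34 and 3.1 (4 of 4 below both controls), pericyte markers to 6.81, 5.29 and 2.01 (5 of 5 below) and ciliary markers to 3.41, 3.73 and 5.97 (5 of 6 above), none of them at 0 in all 3 libraries, and mitochondrial UMIs made up 3.38%, 4.39% and 4.73%. Their part in the member values was not tested. The calls for Tbk1 and Wdr36 ended in DESeq2, with adjusted p of 0.208 and 0.161, and that for Wdr36 also in male-typed cells (edgeR adjusted p = 0.0652). Optn gave 217, 250 and 169 UMIs and a log2 fold change of -0.07 ± 0.18 (edgeR adjusted p = 0.857). The stromal labels also differed in size with genotype. TM7 held 667, 739 and 174 of the 2803, 3324 and 1946 stromal cells, and TM8 held 591, 612 and 155. With each stromal label given equal weight, so that label sizes do not enter, the level of Myoc was 10.7, 11.95 and 5.79. That of Cyp1b1 was 1.61, 1.74 and 0.974, and both Angpt1ΔNC levels remained below the controls. The log2 fold change with equal weights was -0.97 for Myoc and -0.78 for Cyp1b1, beside -0.78 and -1.27 in the sums.

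TM4, where 6.52% of 10430 genes passed, held the most Myoc. Its 16091, 18100 and 6931 Myoc UMIs gave a log2 fold change of -1.37 ± 0.18 (edgeR adjusted p = 0.000172), and its 372, 419 and 186 Cyp1b1 UMIs one of -1.16 ± 0.21 (edgeR adjusted p = 0.00241). Both controls were above the Angpt1ΔNC pool for each gene. In male-typed TM4 cells the values were -1.81 for Myoc (edgeR adjusted p = 3.02e-05) and -1.55 for Cyp1b1 (edgeR adjusted p = 0.000613). Among Angpt1ΔNC TM4 cells the Myoc level was 16.6 in 125 male-typed cells and 31.6 in 143 female-typed cells. Wdr36 gave 45, 46 and 19 UMIs and fell by 1.33 ± 0.36 on the log2 scale (edgeR adjusted p = 0.0358), a call not made by DESeq2 (adjusted p = 0.776) or in male-typed cells (edgeR adjusted p = 0.106). Tbk1 gave -1.10 ± 0.34 (edgeR adjusted p = 0.0696) and Optn -0.31 ± 0.39 (edgeR adjusted p = 0.733).

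Markers of other cells moved with the TM4 result. The uveal list again holds the deleted gene Angpt1 and shares Rgs5 and Pdgfrb with the pericyte list. The summed level of the 4 keratocyte markers in TM4 was 21.4, 24.7 and 41.5, with 2 of 4 above both controls. That of the 5 pericyte markers was 10.0, 7.07 and 1.75 and that of the 4 uveal markers 13.4, 9.87 and 1.80, with 3 of 5 and 3 of 4 below both controls. Adventitial fibroblast markers summed to 9.47, 9.64 and 2.13 (3 of 4 below both) and smooth muscle markers to 15.7, 13.4 and 8.02 (3 of 5 below), while 3 of 6 corneal endothelial markers were above both. None of these markers was at 0 in all 3 libraries. Mitochondrial UMIs made up 3.55%, 4.57% and 5.23% of TM4. The 7 trabecular genes, Myoc among them, summed to 128, 130 and 60.0. Of the 6 tested in TM4, Myoc, Chil1 (-0.93 ± 0.19, edgeR adjusted p = 0.00683) and Chad (-0.80 ± 0.20, edgeR adjusted p = 0.0214) fell, and Nell2 (-0.71, edgeR adjusted p = 0.0822), Fmo2 and Tnc did not pass. How far the mix of cells under TM4 accounts for the Myoc value was not tested.

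In TM7, where 5.07% of 10758 genes passed, Myoc gave 3601, 5195 and 416 UMIs and a log2 fold change of -1.63 ± 0.19 (edgeR adjusted p = 0.00350). Cyp1b1 gave 1474, 2091 and 278 UMIs and a log2 fold change of -0.91 ± 0.19 (edgeR adjusted p = 0.0314), which did not pass in the 32 male-typed Angpt1ΔNC cells (-0.73, edgeR adjusted p = 0.0661). Pericyte markers summed to 14, 11.8 and 4.64 in TM7 (5 of 5 below both controls) and adventitial markers to 12.8, 12.6 and 7.03 (3 of 4 below). Smooth muscle markers summed to 3.26, 5.07 and 12 (3 of 5 above both controls) and epithelial markers to 0.598, 0.419 and 1.39 (4 of 5). Of the uveal markers, the deleted Angpt1 among them, 4 of 4 were below both controls. The part of all these markers was not tested. In TM2, where 1.39% of 10400 genes passed, no member did: Myoc gave 5123, 12330 and 5276 UMIs, a log2 fold change of -0.57 ± 0.26 (edgeR adjusted p = 0.358). Control 1 and the Angpt1ΔNC pool lay close together there, and without control 2 the TM2 value was -0.22. In male-typed TM2 cells it was 0.03 (edgeR adjusted p = 0.980). Cyp1b1 in TM2, at 37, 37 and 52 UMIs, gave 0.55 ± 0.34 (edgeR adjusted p = 0.501).

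The genotype effects of 2 labels were set against each other in a fit with the library as a block, added after seeing the data. For Myoc the log2 fold change in TM7 was lower than that in TM2 by 1.12, a difference of -1.12 ± 0.15 (edgeR adjusted p = 0.00375; 1.75% of 11505 genes passed). The difference between TM4 and TM2 was -0.84 ± 0.21 (edgeR adjusted p = 0.161) and did not pass. For Cyp1b1, TM4 minus TM2 was -1.72 ± 0.33 (edgeR adjusted p = 0.0602) and TM7 minus TM2 was -1.51 ± 0.35 (edgeR adjusted p = 0.0587), neither of which passed.

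No member passed in the endothelial labels or in epithelial clusters 4 and 5. The other labels outside TM1 to TM11 were not tested. The endothelial labels changed in make-up with genotype, SC being 15.6%, 19.3% and 7.18% of their cells, EC3 40.0%, 36.1% and 27.8% and LEC (lymphatic endothelium) 3, 1 and 12 cells. Their endothelial markers summed to 51.3, 49.1 and 40.5 and lymphatic markers to 0.461, 0.308 and 1.19 (2 of 3 above both), and the part of this in the values was not tested. Of all genes, 12.9% of 9660 passed there. Cyp1b1 gave 57, 79 and 47 UMIs, of which 35, 52 and 20 came from SC, and 0.25 ± 0.27 (edgeR adjusted p = 0.608), and Tbk1, highest in EC2, gave 138, 156 and 71 UMIs and -0.27 ± 0.22 (edgeR adjusted p = 0.496). Myoc, with 4, 9 and 1 UMIs there, was removed by the filter on low counts. In epithelial clusters 4 and 5, where 5.72% of 12341 genes passed, Wdr36, highest in epithelia, gave 1224, 932 and 683 UMIs and -0.43 ± 0.16 (edgeR adjusted p = 0.173). Cyp1b1 gave 355, 185 and 391 UMIs there and 0.79 ± 0.27 (edgeR adjusted p = 0.134). For Optn the log2 fold change was between -0.41 and 0.25 in the 6 comparisons and passed in none of them.

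**Figure D5:**
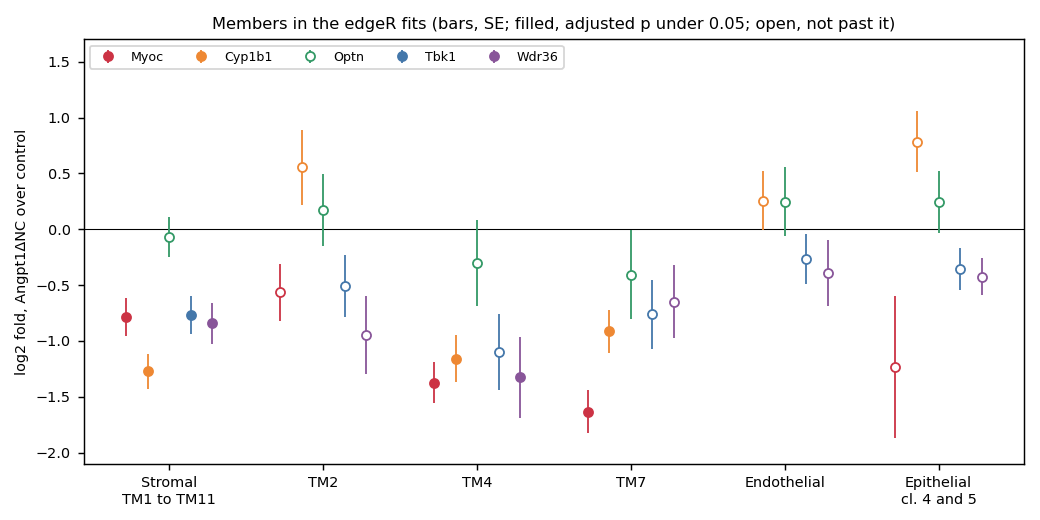
Log2 fold change of the Angpt1ΔNC pool against the controls for the 5 genes in the 6 groups of labels, with bars of 1 SE from edgeR and filled points where the adjusted p was under 0.05. Myoc stands at -1.37 in TM4 and -1.63 in TM7, and Optn lies between -0.41 and 0.25 throughout.

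Of the neighbours in each member's pathway, those of Cyp1b1 gave the most calls in TM4. Of 15 tested genes of the aryl hydrocarbon receptor and of retinoid metabolism, 5 rose in TM4 and none fell. That is 33.3% beside 6.52% of all genes, with a median log2 fold change of 0.56 beside -0.0063. Keratocyte markers in TM4 summed to 21.4, 24.7 and 41.5, with 2 of 4 above both controls and 1 below both. Aldh3a1 is on both lists, and the part of the keratocyte markers in these rises was not tested. Cyp26b1, which degrades retinoic acid, gave 371, 515 and 1383 UMIs and rose by 1.58 ± 0.20 (edgeR adjusted p = 9.31e-05). Aldh1a1, which makes retinoic acid, rose by 1.40 ± 0.19 (edgeR adjusted p = 0.000209), Ahr, the receptor itself, by 1.31 ± 0.23 (edgeR adjusted p = 0.00173) and Adh7 by 2.72 ± 0.54 (edgeR adjusted p = 0.00509). The fifth, Adh1, gave 1, 1 and 27 UMIs, too few in the controls for a fold change. Over all stromal labels Adh7, Cyp26b1 and Adh1 rose and Rdh10 fell, of 16 tested, a share of 25% beside 8.97% of all genes. In the endothelial labels Cyp26b1 went the other way, at 452, 575 and 34 UMIs and -3.13 ± 0.23 (edgeR adjusted p = 2.88e-12), while Cyp1a1 (1.56 ± 0.26, edgeR adjusted p = 3.89e-05) and Tiparp (0.94 ± 0.15, edgeR adjusted p = 2.03e-05), both targets of the receptor, rose. Cyp1b1, a target of the same receptor, did not pass there. The make-up of these labels differed as given, and most control Cyp26b1 came from EC3, with a level of 3.61, 3.78 and 0.466 within it.

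In the myocilin and olfactomedin family Myoc was the only call among 9 genes tested in TM4, and Olfml3 (852, 1184 and 935 UMIs) gave -0.18 ± 0.21 (edgeR adjusted p = 0.691). In TM7, Olfml2a fell by 1.10 ± 0.25 on the log2 scale (edgeR adjusted p = 0.0392) and Olfml2b rose by 1.15 ± 0.19 (edgeR adjusted p = 0.0150), of 10 tested. Of 14 genes of protein folding in the endoplasmic reticulum, 1 (7.14%, beside 6.52% of all genes) rose in TM4, the stress transcription factor Ddit3 (0.77 ± 0.19, edgeR adjusted p = 0.0197), whereas the chaperone Hspa5, at 3364, 3567 and 3381 UMIs, gave -0.11 ± 0.19 (edgeR adjusted p = 0.813). The disulfide isomerase Pdia3 fell over all stromal labels (-0.84 ± 0.15, edgeR adjusted p = 0.0126) and in TM2, TM7, the endothelium and the epithelium.

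Around Optn and Tbk1, 2 of 22 genes tested in TM4 fell and none rose, a share of 9.09% beside 6.52% of all genes. They were Azi2, a Tbk1 adaptor (-0.98 ± 0.25, edgeR adjusted p = 0.0253), and Map1lc3a, an autophagosome protein (-0.73 ± 0.20, edgeR adjusted p = 0.0353). Sqstm1, another autophagy receptor, gave -0.33 ± 0.22 (edgeR adjusted p = 0.443). The list's median in TM4 was 0.0089, beside -0.0063 for all genes. Of 21 processome genes beside Wdr36, none passed in TM4, and over all stromal labels Tbl3 rose (0.72 ± 0.16, edgeR adjusted p = 0.0302) while 3 of the 21 were below 0, with a list median of 0.23. Wdr36 was at -0.84 over the same cells. In TM4, 12 of the 21 were below 0 with a median of -0.13, and Wdr36 was at -1.33.

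Among 16 other genes of inherited glaucoma, Angpt1 fell over all stromal labels (2457, 2615 and 14 UMIs; -7.10, edgeR adjusted p = 3.92e-06) and Efemp1 rose (0.79 ± 0.20, edgeR adjusted p = 0.0459), of 13 tested. In TM7, Ltbp2 (1.22 ± 0.24, edgeR adjusted p = 0.0232) and Efemp1 (1.04 ± 0.20, edgeR adjusted p = 0.0247) rose. In the endothelium Tek, the receptor for angiopoietin 1, fell by 0.58 ± 0.18 on the log2 scale (edgeR adjusted p = 0.0273), with the same difference in make-up. Its level was 1.73, 2.04 and 0.864 within EC3 and 0.877, 1.33 and 0.481 within EC4. Within EC2 it was 1.29, 1.31 and 1.18, and within SC 1.22, 1.06 and 1.01. In the epithelium Foxc1 rose (1.14 ± 0.18, edgeR adjusted p = 0.0122). The gene lists were chosen with earlier results of these data known, so their counts are given as a description.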

How the data were processed

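The authors pooled limbus and iridocorneal angle tissue, made 10x Genomics droplet libraries and deposited UMI counts per gene and cell (mm10), with a table that gives each kept cell a cluster label and a table of integrated values. The processing notes name Cell Ranger 2.1.1 and the matrix header Cell Ranger 3.0.2. Per the study's methods, cells with fewer than 200 genes, fewer than 1000 UMIs or over 10% mitochondrial UMIs and called doublets were removed, and cells were integrated and clustered with Seurat (3.1.3 in the notes); no further cell was removed here. The integrated values, scaled for 2 of the members, were not used. All values come from the deposited counts of kept cells, 76981606, 80346829 and 66484181 UMIs in the 3 libraries.

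A level is a gene's UMIs per 10,000 averaged over cells, and shares of cells carry exact Clopper-Pearson 95% intervals, and a count of 0 allows 3 counts of the total. Shares were also computed after thinning to 2000 UMIs, leaving out shallower cells. Patterns were compared by Pearson correlation of log2(level + 0.1). Genotype was tested on summed counts by edgeR 4.0.16 (R 4.3.3; TMM, filterByExpr, quasi-likelihood F test, Benjamini-Hochberg under 0.05), with DESeq2 1.42.0 as an alternative. Other alternatives were another normalization (RLE), no filter on low counts, male-typed cells alone and leaving out each control in turn. The fits without a control used a preset spread and give a fold change only. The SE is the log2 fold change over the root of F. On simulated data the edgeR step recovered 97% of 200 genes changed by a log2 size of 2 in the stromal labels and 93% in TM7. The simulated spread was the same for every gene and library, and only genes above a minimum count were changed. The size was larger than any member value given above, so the recovery of changes of their size was not measured. Other software was Python 3.11.15, numpy 2.4.6, scipy 1.17.1, pandas 2.3.3 and matplotlib 3.10.9.

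The named genes are the 5 members, the 5 genes most like each, the list genes past the test (up to 4 for a list, by fold) or else the most abundant, and Angpt1 and Xist as label checks; other list genes were named after their values were seen. The members, lists and tests were chosen with earlier results of these data known. Neither protein sequences nor the Wdr36 promoter are shown.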

Additional observations from a re-analysis of the deposited data

Results flagged for a closer look

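The genotype effect on Myoc differed between TM7 and TM2, with log2 fold changes of -1.63 in TM7 and -0.57 in TM2 and a difference of -1.12 (edgeR adjusted p = 0.00375) in a fit added after seeing the data, with the library as a block and 1 residual degree of freedom. The TM2 level of Myoc was lower in control 1 (21.7) than in control 2 (33.0), and the Angpt1ΔNC level was 19.8. No group had 4 or more samples, so no library could be checked as an outlier within its group.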

How the results depend on the processing

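For the 29 log2 fold changes of the members, 171 of 175 alternative fits kept the direction, and TM4, TM7, cluster 8, EC2 and cluster 2 remained the highest labels of Myoc, Cyp1b1, Optn, Tbk1 and Wdr36 under every alternative for levels. In male-typed cells, 4 values that had not passed changed sign: Myoc (0.027), Cyp1b1 (-0.18) and Tbk1 (0.14) in TM2 and Wdr36 (0.39) in TM7. Leaving out 1 control gave -0.91 to -0.64 for Myoc and -1.34 to -1.20 for Cyp1b1 over the stromal labels, and equal weights per label gave -0.97 and -0.78. In all, 6 values no longer passed, as given beside each, and 3 passed newly, the latter with no filter on low counts: Myoc in TM2 (edgeR adjusted p = 0.0488), Tbk1 in TM4 (0.0262) and Cyp1b1 in the epithelium (0.00485). The number of genes called over the stromal labels was 617 in DESeq2 and 2441 with no filter, beside 1251. In TM2 it was 83 in DESeq2, 52 with RLE and 550 with no filter, beside 145, and in TM4 it was 165 in DESeq2, beside 680. In TM7 it was 238 in DESeq2, 854 with RLE and 1351 with no filter, beside 545. In the endothelium it was 238 in DESeq2, beside 1250, and in the epithelium 443 in DESeq2 and 1814 with no filter, beside 706. Thinning to 2000 UMIs moved the mean share of positive cells from 84.4% to 75.0% for Myoc in TM4, from 69.6% to 42.5% for Cyp1b1 in TM7, from 67.3% to 20.8% for Optn in cluster 8, from 38.4% to 12% for Tbk1 in EC2 and from 70.1% to 11.1% for Wdr36 in cluster 2. The cause of these changes was not tested, apart from fewer UMIs per cell in the thinned shares. No paired analysis was possible because the control and Angpt1ΔNC groups share fewer than 2 replicate numbers. With 1 Angpt1ΔNC library and 19 to 68 UMIs for Tbk1 and Wdr36 in TM4, only large differences in those genes could be resolved.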

Other observations

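In the smooth muscle label cluster 19, Myoc gave 7 and 12 UMIs in 387 and 499 control cells and 43 UMIs in 54 Angpt1ΔNC cells, of which 38 were in 1 cell. The level there was 0.0305, 0.0397 and 0.993, so the ratio rests on that cell. In the male-typed and female-typed cells of the Angpt1ΔNC pool, the Myoc level was 24.8 and 18.6 in TM2 and 3.45 and 3.30 in TM7, beside 16.6 and 31.6 in TM4. The order of male-typed and female-typed cells thus differed between TM4 and TM2, and this was not tested, since all these cells came from 1 pool.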
